A study of Homo sapiens with 6 samples.

Results

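The genes of cholesterol and fatty acid synthesis were followed in A549 cells given a microRNA mimic. They were chosen by name, as 37 genes of the mevalonate and sterol pathway, its regulators, sterol transport and fatty acid synthesis, and every probe that the platform annotation assigns to one of them was taken. A probe entered the analysis when its detection p-value, the authors' measure of signal above negative controls, was under 0.05 on at least 2 of 6 arrays. Of the 37 genes, 36 had an annotated probe and 35 had a kept probe, among 11817 named genes measured in all. The squalene synthase gene FDFT1 was not analysed here, and the single probe of STARD4, a sterol carrier between membranes, did not pass. Of the 35 measured genes, 34 were detected on all 6 arrays, and SREBF2 on 2.

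A549 is an established human lung adenocarcinoma line. The cells were grown in medium with fetal bovine serum, transfected with Lipofectamine RNAiMAX and harvested 24 h later. The 3 groups received, respectively, a synthetic miR-608 mimic, a miR-552-3p mimic and a negative control mimic. Each group has 2 arrays, Illumina bead arrays hybridised with biotin-labelled RNA, and every group was transfected, so no array shows untreated cells. The labels do not tell whether both arrays of one group had their own culture, so the p-values measure only the spread between these arrays, which may be technical. A mimic is a synthetic duplex supplied from outside, and its level in the cells was not analysed here.

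Cells build cholesterol from acetyl-CoA through mevalonate, isoprenoid diphosphates, squalene and lanosterol. The SREBP transcription factors switch on the genes of sterol and of fatty acid synthesis: when membrane sterols run low, SCAP escorts them from the endoplasmic reticulum to the Golgi for cleavage, and INSIG proteins hold SCAP back when sterols are plentiful. SREBF1 encodes the forms best known for fatty acid genes and SREBF2 the form best known for cholesterol genes. A microRNA lowers RNAs that pair with its seed, and the seeds of both mimics are shown because they define what each group received.

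The mature sequences are those of RefSeq (GRCh38.p14), with the seed, bases 2 to 8, in capitals.
hsa-miR-608: aGGGGUGGuguugggacagcuccgu
hsa-miR-552-3p: aACAGGUGacugguuagacaa
The first maps to chr10:100975000-100975024 on the plus strand, inside the protein-coding gene SEMA4G in the RefSeq gene table. The second maps to chr1:34669614-34669634 on the minus strand, inside the long noncoding gene LOC105378641. Of the 7 seed positions, 2 hold the same base in both microRNAs, and 6 of the 7 bases of the miR-608 seed are G against 3 in the miR-552-3p seed.

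Between 18550 and 19758 probes were detected per array. Pearson correlations across probes, which are no independent replicates, were 0.993 to 0.994 within groups and 0.968 to 0.978 between groups. Over the 35 genes, the median SD within a group was 0.040 to 0.057 log2 units. All 6 epithelial markers were detected on all 6 arrays. The immune genes PTPRC and CD3E and the endothelial genes PECAM1, VWF and CDH5 were detected on none. Of the fibroblast markers, COL1A1 was detected on 6 arrays, COL1A2 on 3, DCN on 1 and PDGFRB on 0. Of the alveolar type II markers, ABCA3 and LAMP3 were detected on all 6 arrays and the surfactant genes SFTPC, SFTPB and SFTPA1 on none. The immune marker CD14 was detected on all arrays, at 9.79 to 9.81 log2 units with control, 9.60 to 9.62 with miR-608 and 8.50 to 8.66 with miR-552-3p. The summed log2 level of the kept alveolar type II markers, ABCA3 and LAMP3, was 16.3 to 16.6 with control, 17.6 to 18.0 with miR-608 and 16.5 to 16.6 with miR-552-3p, and that of the 2 kept fibroblast collagen genes 13.53 to 13.76, 13.02 to 13.55 and 12.64 to 13.08. The part of these markers in the values of the lipid genes was not tested.

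With miR-608, several sterol synthesis genes rose and several fatty acid genes fell, though many of these calls were lost with 1 array left out. Of the 35 genes, 14 rose (40%), where 14.3% of all 16891 rows (named genes and unnamed probes) rose. Another 5 fell (14.3%), near the 15.0% of all rows that fell. Of 17 measured sterol synthesis enzymes 9 rose and 0 fell by limma, 11 and 0 at an unadjusted p under 0.05, and 16 lay above zero. Over all 16891 rows, 3534 rose and 3502 fell at an unadjusted p under 0.05, and 8746 lay above zero. Their median log2 fold change was 0.34 against 0.02 over all rows. Of 10 fatty acid genes 4 fell (40%) and 1 rose (10%), with a median of -0.24. The RNA is that of whole cultures, in which fewer cells of a type and less RNA per cell cannot be told apart. A call here is an adjusted p under 0.05 from limma (Benjamini-Hochberg over all rows), and values are log2 fold changes ± SE with 2 arrays per group.

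With miR-552-3p, more sterol enzymes rose than fell, while their median stayed near that over all rows. Of the 35 genes, 12 rose (34.3%), where 14.6% of all rows rose, and 8 fell (22.9%), where 16.8% of all rows fell. Among the sterol enzymes 7 rose (41.2%) and 2 fell (11.8%), a count of falls that does not stand apart from the share over all rows. Their median was 0.01 against 0.02 over all rows. Of the fatty acid genes 2 rose (20%) and 3 fell (30%), with a median of -0.004. Both comparisons use the same 2 control arrays, so their values stand side by side without a measure of likeness between them.

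**Figure D1:**
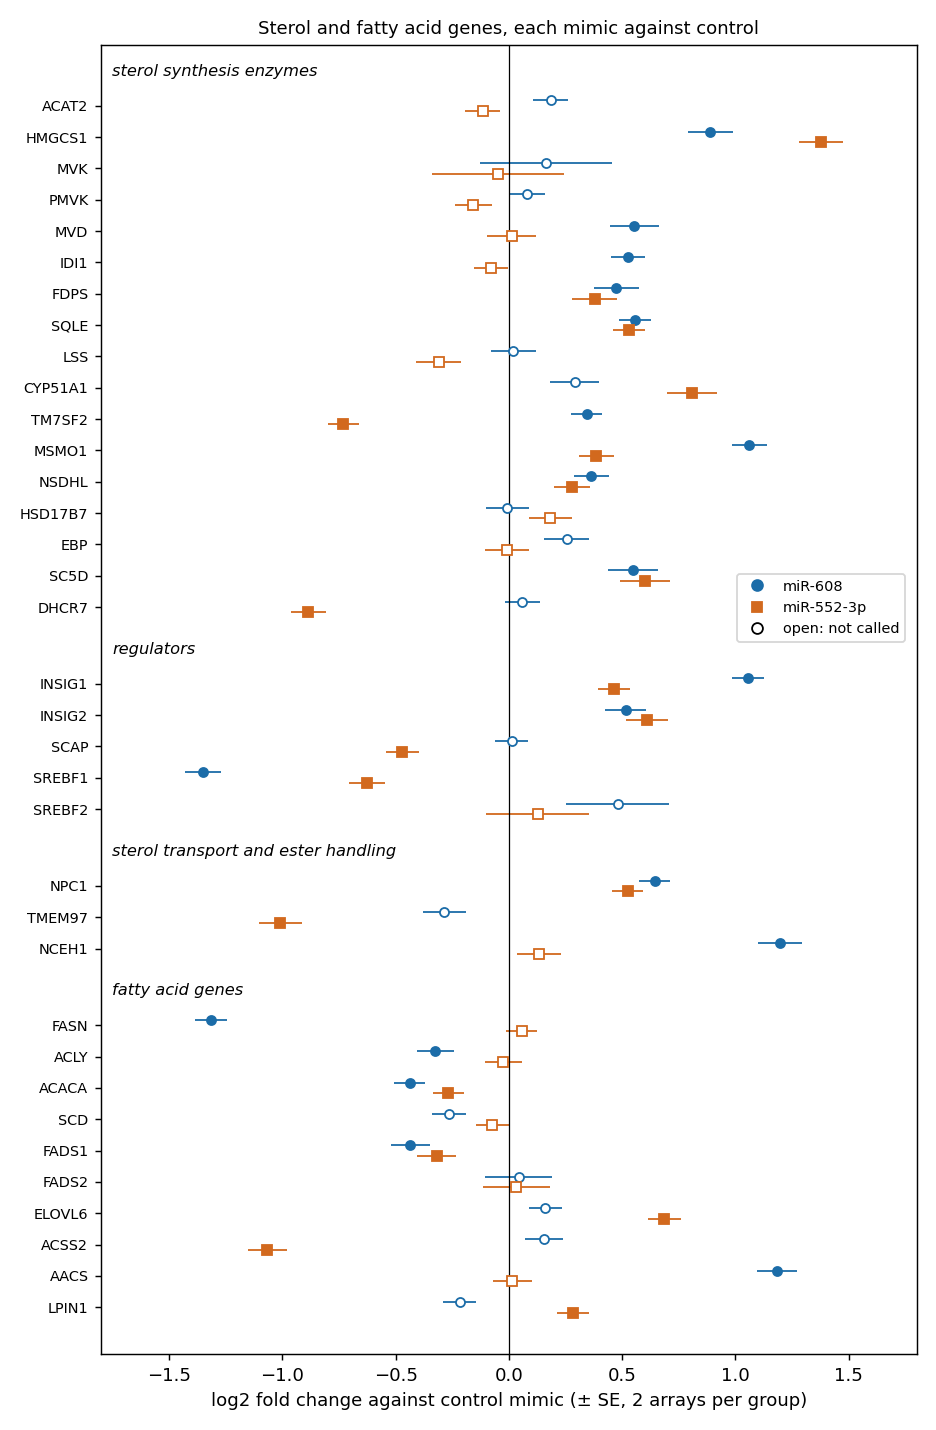
Log2 fold change against the control mimic (x axis, ± SE, 2 arrays per group) of the 35 measured genes, with miR-608 as circles, miR-552-3p as squares and open symbols for values that were not called. With miR-608 all 9 called sterol enzymes lie to the right of zero, whereas with miR-552-3p TM7SF2 (-0.73) and DHCR7 (-0.89) lie to the left.

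HMGCS1, which makes HMG-CoA at the entry to the mevalonate pathway, read 11.45 and 11.54 log2 units on the control arrays, 12.34 and 12.43 with miR-608 and 12.97 and 12.78 on the miR-552-3p arrays. The 3 groups stood apart, control lowest and miR-552-3p highest. The rise was 0.89 ± 0.10 with miR-608 (1.85-fold, adjusted p = 0.00425) and 1.38 ± 0.10 with miR-552-3p (2.60-fold, adjusted p = 0.00134). ACAT2, which joins acetyl-CoA units in the step before, was not called in either comparison (0.18 ± 0.08 and -0.11 ± 0.08). The kinases that phosphorylate mevalonate were not called with either mimic, MVK at 0.16 ± 0.29 and -0.05 ± 0.29 and PMVK at 0.08 ± 0.08 and -0.16 ± 0.08. The MVK arrays of the 3 groups overlapped.

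The next enzymes make the isoprenoid units. MVD, which decarboxylates the last mevalonate intermediate, read 7.78 and 7.93 with control, 8.50 and 8.32 with miR-608 and 7.80 and 7.94 on the miR-552-3p arrays. Only the miR-608 arrays were high, and the other groups overlapped. The rise with miR-608 was 0.55 ± 0.11 (1.47-fold, adjusted p = 0.0191), against 0.01 ± 0.11 with miR-552-3p. IDI1, the isomerase that readies the units for joining, read 9.99 and 9.98 with control, 10.45 and 10.56 with miR-608 and 9.91 and 9.89 on the miR-552-3p arrays. Here too the miR-608 arrays were the high ones, by 0.53 ± 0.08 (1.44-fold, adjusted p = 0.00816), and the value with miR-552-3p was -0.08 ± 0.08. FDPS, which joins the units to farnesyl diphosphate, rose with both mimics, by 0.48 ± 0.10 with miR-608 and 0.38 ± 0.10 for miR-552-3p (adjusted p = 0.0229 and 0.0409).

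Squalene epoxidase, SQLE, a rate-controlling enzyme of sterol synthesis, read 12.71 and 12.68 with control, 13.28 and 13.22 with miR-608 and 13.21 and 13.23 on the miR-552-3p arrays. Both mimics raised it above both control arrays, and the arrays of the 2 mimics overlapped. The rise was 0.56 ± 0.07 with miR-608 (adjusted p = 0.00598) and 0.53 ± 0.07 with miR-552-3p (adjusted p = 0.00579). LSS, which closes squalene epoxide to lanosterol, was not called (0.02 ± 0.10 and -0.31 ± 0.10).

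CYP51A1 removes a methyl group from lanosterol. It read 8.94 and 9.04 with control, 9.29 and 9.27 with miR-608 and 9.67 and 9.93 on the miR-552-3p arrays. Its levels were ordered control, miR-608, miR-552-3p with no overlap, but only miR-552-3p was called, at 0.81 ± 0.11 (1.75-fold, adjusted p = 0.00601), with miR-608 at 0.29 ± 0.11 (adjusted p = 0.109). TM7SF2, the sterol reductase that acts next, read 8.99 and 8.98 with control, 9.34 and 9.32 with miR-608 and 8.26 and 8.24 on the miR-552-3p arrays. The mimics moved it in opposite directions, up by 0.34 ± 0.07 with miR-608 (adjusted p = 0.0199) and down with miR-552-3p, where it fell by 0.73 ± 0.07 (1.66-fold, adjusted p = 0.00233).

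MSMO1, the oxidase that starts removing further methyl groups from the sterol ring, read 11.30 and 11.35 with control, 12.38 and 12.39 with miR-608 and 11.66 and 11.77 on the miR-552-3p arrays. The miR-608 arrays were highest and control lowest, without overlap. The rise was 1.06 ± 0.08 with miR-608 (2.09-fold, adjusted p = 0.00176) and 0.39 ± 0.08 with miR-552-3p (1.31-fold, adjusted p = 0.0188). Its partners in the same steps differed. NSDHL rose with both mimics (0.36 ± 0.08 and 0.28 ± 0.08, adjusted p = 0.0240 and 0.0483), and HSD17B7 was not called (-0.01 ± 0.09 and 0.18 ± 0.09).

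Late enzymes set the double bonds of the sterol. The isomerase EBP was not called with either mimic (0.26 ± 0.10 and -0.01 ± 0.10). The desaturase SC5D read 9.62 and 9.44 with control, 10.11 and 10.05 with miR-608 and 10.23 and 10.03 on the miR-552-3p arrays. All 4 mimic arrays lay above both controls, with a rise of 0.55 ± 0.11 with miR-608 and 0.60 ± 0.11 for miR-552-3p (adjusted p = 0.0206 and 0.0143). DHCR7, the reductase of a final step to cholesterol, read 11.14 and 11.18 with control, 11.20 and 11.24 with miR-608 and 10.22 and 10.33 on the miR-552-3p arrays. Its miR-552-3p arrays alone were low. DHCR7 fell by 0.89 ± 0.08 with miR-552-3p (1.85-fold, adjusted p = 0.00205) and stood at 0.06 ± 0.08 with miR-608.

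**Figure D2:**
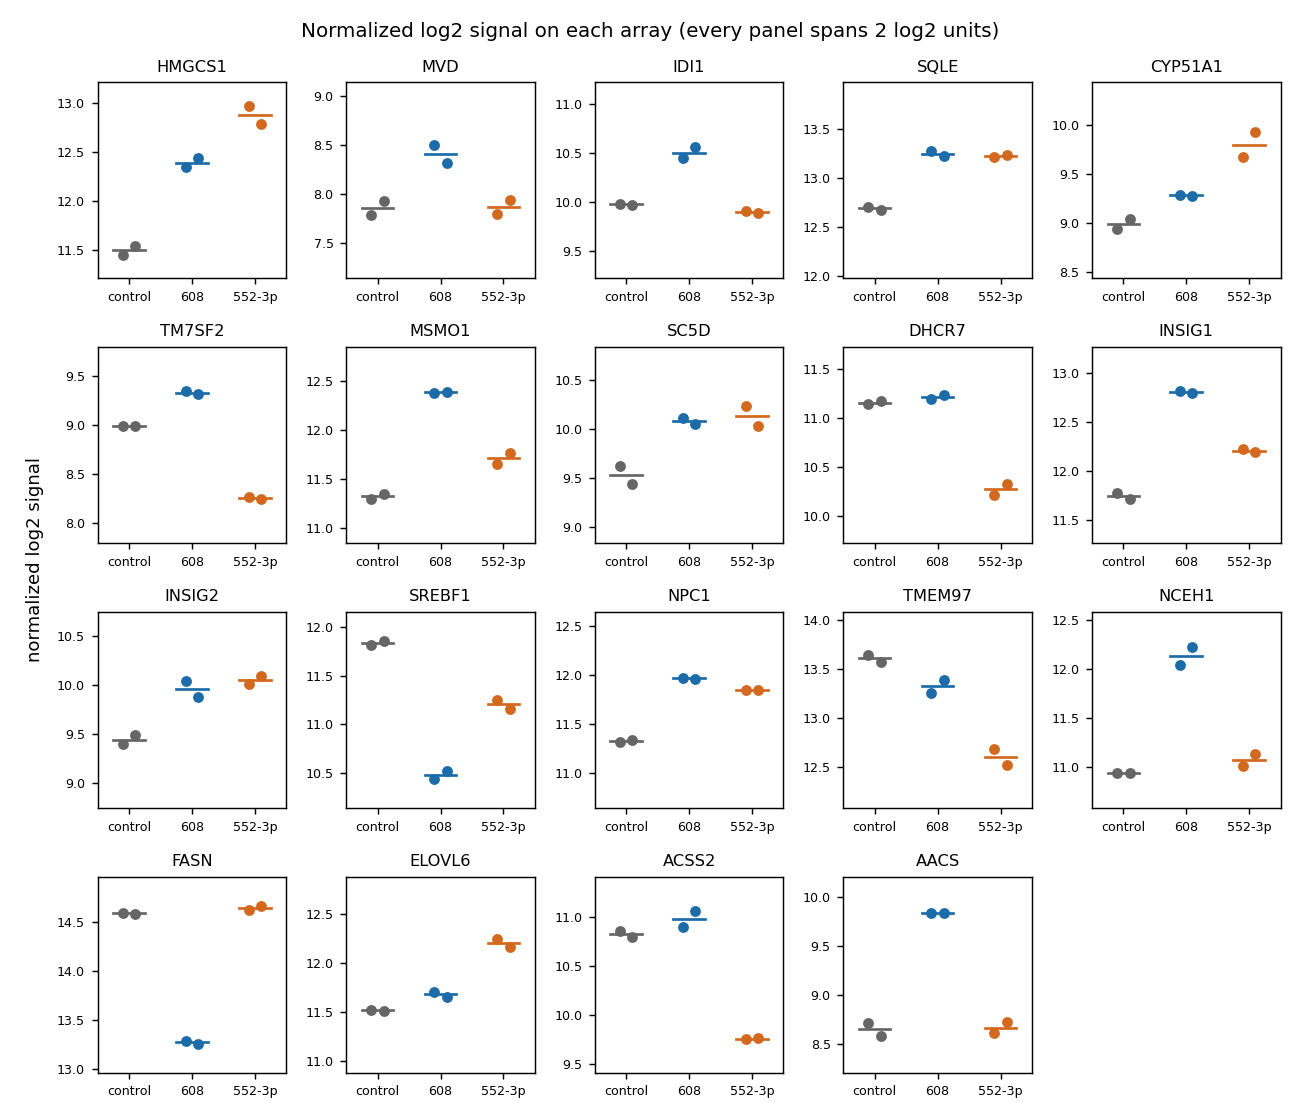
Normalised log2 signal on each array (points, with the group mean as a line) for the 19 genes called with a log2 change of at least 0.5 against control with either mimic; every panel spans the same range. FASN is low only on the miR-608 arrays (13.28 and 13.26), ACSS2 only on the miR-552-3p arrays (9.76 on both), and SREBF1 is below control on all 4 mimic arrays.

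The regulators that hold SCAP back rose and SREBF1 fell with both mimics. Of 5 regulators 2 rose (40%) and 1 fell (20%) with miR-608, where 14.3% and 15.0% of all rows did. With miR-552-3p 2 rose (40%) and 2 fell (40%), where 14.6% and 16.8% of all rows did. In a list of 5, 1 gene is 20%, so the count of falls with miR-608 lies near the share over all rows. INSIG1 read 11.77 and 11.71 with control, 12.81 and 12.79 with miR-608 and 12.22 and 12.19 on the miR-552-3p arrays. The 3 groups did not overlap and miR-608 was highest. INSIG1 rose by 1.06 ± 0.07 with miR-608 (2.08-fold, adjusted p = 0.00162) and by 0.46 ± 0.07 with miR-552-3p (1.38-fold, adjusted p = 0.00857). INSIG2, its relative, read 9.39 and 9.48 with control, 10.03 and 9.87 with miR-608 and 10.01 and 10.09 on the miR-552-3p arrays. The mimic arrays overlapped each other and lay above control, by 0.52 ± 0.09 with miR-608 and 0.61 ± 0.09 for miR-552-3p (adjusted p = 0.0145 and 0.00807).

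SREBF1 read 11.81 and 11.85 with control, 10.44 and 10.52 with miR-608 and 11.25 and 11.16 on the miR-552-3p arrays. The groups were ordered control, miR-552-3p, miR-608 with no overlap. SREBF1 fell by 1.35 ± 0.08 with miR-608 (2.55-fold, adjusted p = 0.00142) and by 0.63 ± 0.08 with miR-552-3p (1.54-fold, adjusted p = 0.00505). SCAP, the escort protein, fell by 0.47 ± 0.07 with miR-552-3p (adjusted p = 0.00897) and stood at 0.01 ± 0.07 with miR-608. SREBF2 was detected on 1 array of each mimic and on 0 control arrays, and was not called (0.48 ± 0.23 and 0.13 ± 0.23). Its level could not be followed at this signal.

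Of the sterol transport genes, NPC1, which exports cholesterol from lysosomes, read 11.31 and 11.34 with control, 11.97 and 11.96 with miR-608 and 11.85 on both miR-552-3p arrays. Both mimics lay above control, by 0.64 ± 0.07 (adjusted p = 0.00389) and 0.53 ± 0.07 (adjusted p = 0.00536). NCEH1, a hydrolase of cholesteryl esters, read 10.94 and 10.93 with control, 12.04 and 12.23 with miR-608 and 11.003 and 11.13 on the miR-552-3p arrays. The miR-608 arrays stood apart, up by 1.20 ± 0.10 (2.29-fold, adjusted p = 0.00210), against 0.13 ± 0.10 with miR-552-3p. TMEM97, a membrane protein that binds NPC1, read 13.64 and 13.58 with control, 13.26 and 13.39 with miR-608 and 12.68 and 12.52 on the miR-552-3p arrays. Its miR-552-3p arrays were lowest: TMEM97 fell by 1.01 ± 0.10 there (2.01-fold, adjusted p = 0.00242), with -0.28 ± 0.10 for miR-608 (adjusted p = 0.0820). Its other probe did not show this fall (0.12 ± 0.11 with miR-552-3p).

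FASN, the synthase that builds palmitate, changed most among the fatty acid genes with miR-608. It read 14.59 and 14.58 with control, 13.28 and 13.26 with miR-608 and 14.62 and 14.66 on the miR-552-3p arrays. The miR-608 arrays were low and the other 4 lay close together. FASN fell by 1.31 ± 0.07 with miR-608 (2.49-fold, adjusted p = 0.00135) and stood at 0.06 ± 0.07 with miR-552-3p (95% interval -0.12 to 0.23).

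The enzymes that feed FASN changed less than FASN with miR-608, with ACSS2 above zero, and ACSS2 and ACACA fell with miR-552-3p. ACLY, which makes cytosolic acetyl-CoA from citrate, fell by 0.33 ± 0.08 with miR-608 (adjusted p = 0.0389), against -0.02 ± 0.08 with miR-552-3p. ACACA, which carboxylates acetyl-CoA to malonyl-CoA, fell by 0.44 ± 0.07 with miR-608 and by 0.27 ± 0.07 with miR-552-3p (adjusted p = 0.0105 and 0.0394). ACSS2, which makes acetyl-CoA from acetate, read 10.86 and 10.80 with control, 10.90 and 11.06 with miR-608 and 9.76 on both miR-552-3p arrays. Its miR-552-3p arrays were the low ones. ACSS2 fell by 1.07 ± 0.09 with miR-552-3p (2.09-fold, adjusted p = 0.00172) and stood at 0.16 ± 0.09 with miR-608.

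AACS, which activates the ketone body acetoacetate for lipid synthesis, was the 1 fatty acid gene of 10 that rose with miR-608. It read 8.72 and 8.58 with control, 9.83 on both miR-608 arrays and 8.61 and 8.72 with miR-552-3p. Only miR-608 stood apart, with a rise of 1.18 ± 0.09 (2.27-fold, adjusted p = 0.00177), while the other groups overlapped (0.02 ± 0.09 with miR-552-3p).

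Genes that lengthen and desaturate fatty acids were mixed. ELOVL6, an elongase of saturated chains, read 11.52 and 11.51 with control, 11.70 and 11.66 with miR-608 and 12.24 and 12.16 on the miR-552-3p arrays. The miR-552-3p arrays were highest, with a rise of 0.69 ± 0.07 (1.61-fold, adjusted p = 0.00323), and the value for miR-608 was 0.16 ± 0.07 (adjusted p = 0.165). FADS1, a desaturase of polyunsaturated fatty acids, fell by 0.43 ± 0.09 with miR-608 and by 0.32 ± 0.09 with miR-552-3p (adjusted p = 0.0201 and 0.0456). Its relative FADS2 was not called (0.04 ± 0.15 and 0.03 ± 0.15). SCD, which makes monounsaturated fatty acids, was not called (-0.26 ± 0.07, adjusted p = 0.0511, and -0.07 ± 0.07). LPIN1, a phosphatidate phosphatase of glycerolipid synthesis, rose by 0.28 ± 0.07 with miR-552-3p (adjusted p = 0.0367) and stood at -0.22 ± 0.07 with miR-608 (adjusted p = 0.0776).

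Set against each other within an array, the sterol enzymes had a higher median change than the fatty acid genes with miR-608. Each gene's log2 signal was taken minus its control mean, and the median of the fatty acid genes was subtracted from that of the sterol enzymes, so the control arrays lie about zero by construction. This difference of medians was -0.007 and 0.007 on the control arrays, 0.581 and 0.588 with miR-608 and 0.168 and 0.027 on the miR-552-3p arrays. Both miR-608 arrays were higher than both miR-552-3p arrays. On the single lists, the sterol enzyme median was 0.36 and 0.33 with miR-608 and 0.10 and 0.08 on the miR-552-3p arrays, and the fatty acid median -0.23 and -0.26 with miR-608 and -0.07 and 0.06 for miR-552-3p. The genes were selected with earlier results of these data known, so these medians are a description without a test.

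**Figure D3:**
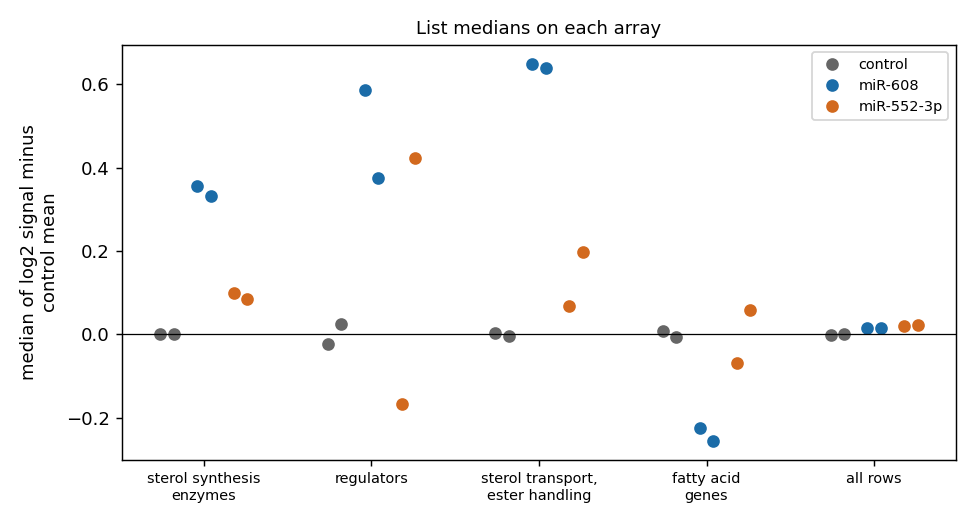
Median over each list of the log2 signal minus the control mean (y axis), with 1 point per array, for the 4 groups of genes and for all rows. On every mimic array the median of the 5 regulators is the value of SREBF2, which was detected on 0 control arrays. The level of SREBF2 could not be followed at this signal. Control arrays lie about zero by construction, and the miR-608 arrays lie above zero for sterol enzymes (0.36 and 0.33) and below it for fatty acid genes (-0.23 and -0.26). All rows stay near zero on every array, largely because the arrays were quantile normalized.

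Compared directly, the mimics differed at 19 of the 35 genes. With miR-608 against miR-552-3p, 12 were higher (34.3%), where 18.9% of all rows were higher. The 7 that were lower (20%) made up a share near the 18.2% of all rows. Of the sterol enzymes 6 were higher (35.3%) and 2 lower (11.8%) with miR-608, with a median difference of 0.24. Of the fatty acid genes 2 were higher (20%) and 4 lower (40%), with a median of -0.18. The median over all rows was -0.01. This comparison shares its arrays with those against control.

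Genes higher with miR-608 included TM7SF2, DHCR7, ACSS2, TMEM97 and SCAP, which miR-552-3p had lowered. TM7SF2 differed by 1.07 ± 0.07 log2 units (2.11-fold, adjusted p = 0.000714), DHCR7 by 0.95 ± 0.08 (adjusted p = 0.00125), ACSS2 by 1.22 ± 0.09 (2.33-fold, adjusted p = 0.000861), TMEM97 by 0.72 ± 0.10 and SCAP by 0.48 ± 0.07 (adjusted p = 0.00436 and 0.00664). In others the difference followed a rise with miR-608, as in AACS (1.17 ± 0.09, adjusted p = 0.00100), NCEH1 (1.06 ± 0.10, adjusted p = 0.00163), IDI1 (0.61 ± 0.08), INSIG1 (0.59 ± 0.07), MSMO1 (0.67 ± 0.08) and MVD (0.54 ± 0.11). ACAT2, called in neither comparison with control, was higher with miR-608 by 0.30 ± 0.08 (adjusted p = 0.0350).

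Genes lower with miR-608 than with miR-552-3p were led by FASN (-1.37 ± 0.07, 2.59-fold, adjusted p = 0.000522) and SREBF1 (-0.72 ± 0.08, adjusted p = 0.00257). The others were ELOVL6 (-0.53 ± 0.07), CYP51A1 (-0.52 ± 0.11), LPIN1 (-0.50 ± 0.07), HMGCS1 (-0.49 ± 0.10) and ACLY (-0.30 ± 0.08). For the remaining 16 genes no difference was called, which does not show that the mimics act alike. The 95% interval of the difference was -0.15 to 0.21 for SQLE, -0.33 to 0.14 for INSIG2, -0.06 to 0.29 for NPC1, -0.16 to 0.35 for FDPS and -0.33 to 0.23 for SC5D.

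**Figure D4:**
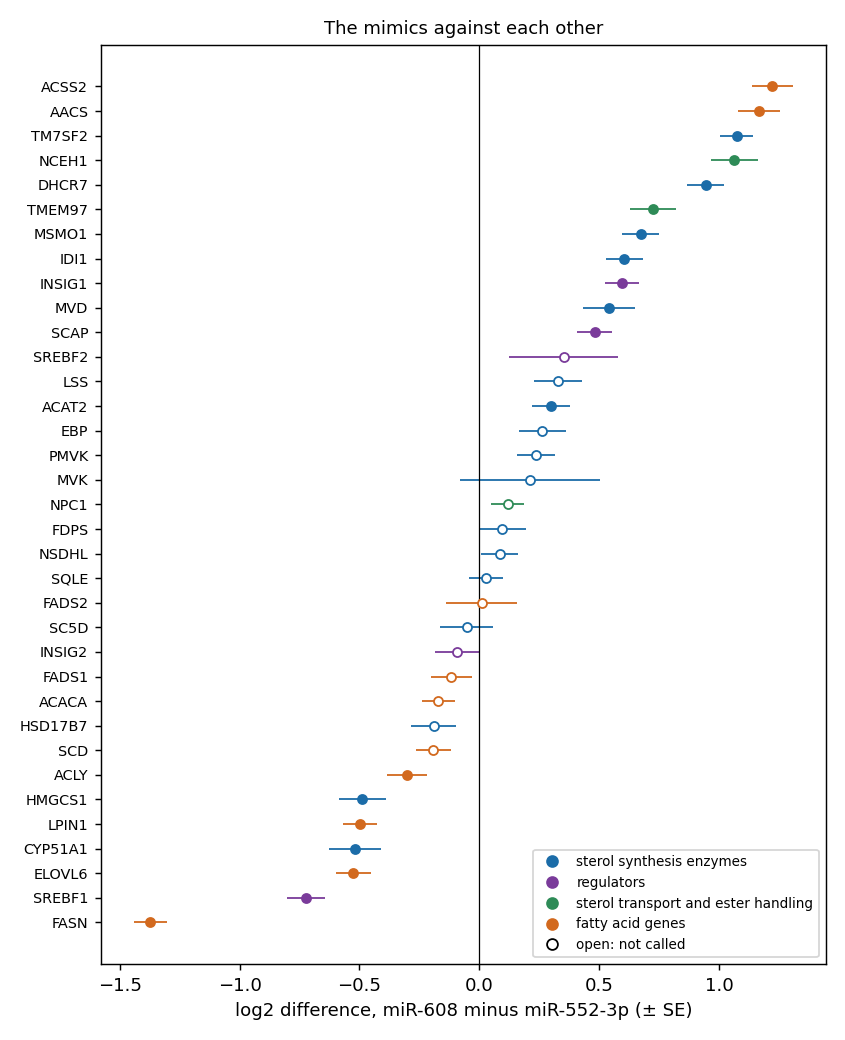
Log2 difference between the mimics (x axis, miR-608 minus miR-552-3p, ± SE) for the 35 genes in order of size, coloured by role, with open symbols for differences that were not called. ACSS2 (1.22) and FASN (-1.37), both fatty acid genes, lie at the opposite ends.

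Several calls did not hold on fewer arrays. With 1 array left out at a time, the adjusted p rose to between 0.0509 and 0.150 in at least 1 case for 9 genes with miR-608 (MVD, FDPS, TM7SF2, NSDHL, SC5D, INSIG2, ACLY, ACACA and FADS1), of which ACLY and NSDHL were lost whichever array was left out. With miR-552-3p the 9 were FDPS, MSMO1, NSDHL, SC5D, INSIG1, SCAP, ACACA, FADS1 and LPIN1 (adjusted p from 0.0503 to 0.158), with FDPS, NSDHL, ACACA, FADS1 and LPIN1 lost in each case. Between the mimics they were ACAT2, HMGCS1, MVD, CYP51A1 and ACLY (adjusted p from 0.0520 to 0.158), with ACAT2 and ACLY lost in each case. In all of these the log2 change kept its sign.

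For 12 of the genes more than 1 probe was kept, which gives a second reading within the same arrays. In a fit over all 20749 kept probes, 4 of the 13 other probes were higher and 3 lower with miR-608, where 14.1% of all kept probes were higher and 14.4% lower. With miR-552-3p 5 were higher and 4 lower, where 14.7% of all kept probes were higher and 16.1% lower. Between the mimics 5 were higher with miR-608 and 4 lower, where 18.3% and 18.2% of all kept probes were. The call was that of the probe used for the gene in 12 of 13 cases with miR-608, 12 with miR-552-3p and 11 between the mimics. The second SREBF1 probe fell by 1.14 ± 0.11 and by 0.43 ± 0.11 (adjusted p = 0.00345 and 0.0407), and the second INSIG1 probe rose by 1.35 ± 0.14 and 0.52 ± 0.14 (adjusted p = 0.00359 and 0.0413). Likewise the second probe of DHCR7 fell by 1.01 ± 0.11 and that of ACSS2 by 1.15 ± 0.09 with miR-552-3p, and the second NCEH1 probe rose by 0.90 ± 0.12 with miR-608.

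In their calls, MSMO1 and TMEM97 were the exceptions. The sign was that of the probe used for the gene in 12 of 13 cases with miR-608, 10 with miR-552-3p and 11 between the mimics. With miR-552-3p the probes of NCEH1 (0.13 and -0.13) and of ACLY (-0.02 and 0.11), none of them called, also differed in sign. The second MSMO1 probe rose with both mimics (1.05 ± 0.09 and 0.51 ± 0.09), but a dimmer remaining probe read 7.06 and 7.25 with control, 7.12 and 7.35 with miR-608 and 7.67 and 7.98 on the miR-552-3p arrays. On that probe the miR-608 and control arrays overlapped and miR-552-3p was high (0.08 ± 0.15 and 0.67 ± 0.15, adjusted p = 0.737 and 0.0266). Its difference between the mimics, -0.59 ± 0.15 (adjusted p = 0.0333), was opposite to that of the probe used for the gene. The other TMEM97 probe read 10.63 and 10.79 with control, 10.93 and 11.09 with miR-608 and 10.90 and 10.76 on the miR-552-3p arrays. It was called in no comparison, so the fall of TMEM97 rests on 1 of its 2 probes. With miR-608 the 2 probes had opposite signs, at 0.30 ± 0.11 for this probe and -0.28 ± 0.10 for the probe used, and neither was called.

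**Figure D5:**
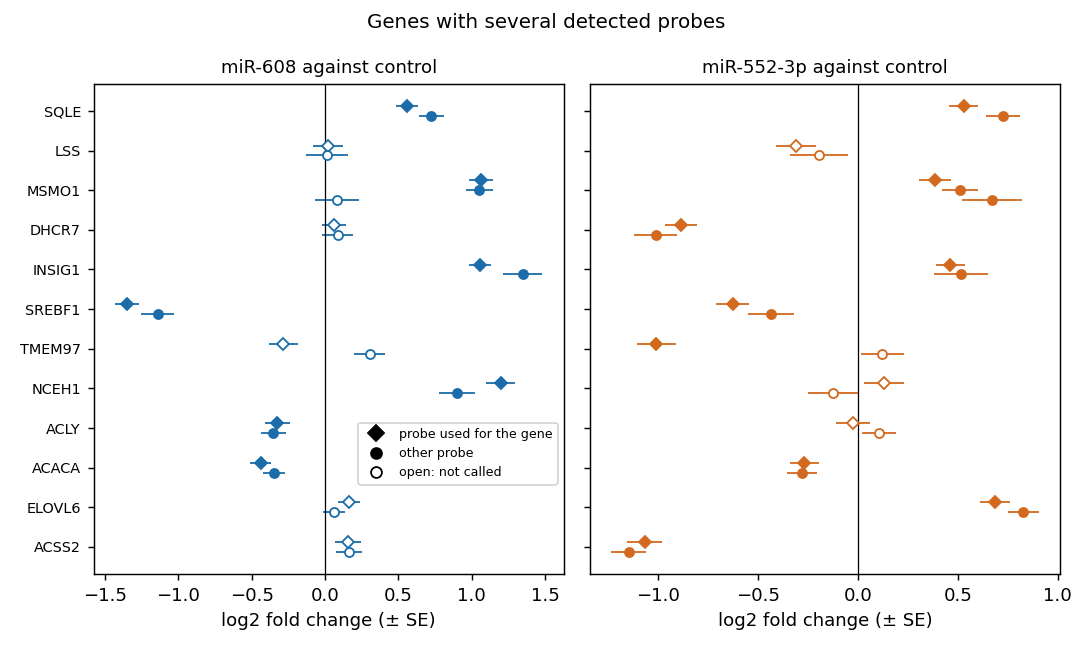
Log2 fold change against control (x axis, ± SE) of every kept probe of the 12 genes with more than 1, for miR-608 (left) and miR-552-3p (right); diamonds mark the probe used for the gene and open symbols values that were not called. The probes of SREBF1, INSIG1 and ACACA lie on the same side of zero within each panel, whereas the dimmest MSMO1 probe (0.08 with miR-608) and the other TMEM97 probe (0.12 with miR-552-3p) lie apart from their partners.

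The promoters of 33 of the 37 genes were in the RefSeq promoter table (GRCh38.p14), as windows of 300 bases, 250 before to 50 after the start. FASN, ACAT2, SQLE and FDFT1 had no entry there. Those of INSIG1 and MSMO1, which rose with both mimics, and of SREBF1, which fell with both, are shown because these genes moved furthest among regulators and sterol enzymes with miR-608. Capitals mark matches on either strand to CCAAT, the box bound by NF-Y, and to GGGCGG, the box bound by Sp factors.
INSIG1: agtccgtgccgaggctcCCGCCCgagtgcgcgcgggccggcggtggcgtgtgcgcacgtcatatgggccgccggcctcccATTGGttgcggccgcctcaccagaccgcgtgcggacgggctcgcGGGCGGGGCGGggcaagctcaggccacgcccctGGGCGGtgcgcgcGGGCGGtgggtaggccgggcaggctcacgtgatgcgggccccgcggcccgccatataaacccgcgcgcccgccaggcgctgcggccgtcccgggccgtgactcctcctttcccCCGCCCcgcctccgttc
MSMO1: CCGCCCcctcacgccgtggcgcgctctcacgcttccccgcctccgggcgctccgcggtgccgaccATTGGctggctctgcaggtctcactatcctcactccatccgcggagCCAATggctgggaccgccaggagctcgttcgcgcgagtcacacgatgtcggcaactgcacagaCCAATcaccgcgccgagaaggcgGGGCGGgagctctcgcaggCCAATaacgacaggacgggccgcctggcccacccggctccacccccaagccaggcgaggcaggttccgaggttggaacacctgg
SREBF1: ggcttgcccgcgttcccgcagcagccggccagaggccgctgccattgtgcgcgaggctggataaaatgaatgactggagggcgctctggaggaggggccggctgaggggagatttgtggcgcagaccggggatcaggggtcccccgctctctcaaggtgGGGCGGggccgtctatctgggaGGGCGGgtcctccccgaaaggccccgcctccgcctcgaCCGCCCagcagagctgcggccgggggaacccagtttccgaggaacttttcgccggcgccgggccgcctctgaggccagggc
They lie at chr7:155297628-155297927 (plus strand), chr4:165327419-165327718 (plus strand) and chr17:17836937-17837236 (minus strand). The MSMO1 window holds 4 CCAAT matches, that of INSIG1 holds 1 and that of SREBF1 holds 0, while GGGCGG occurs 2, 6 and 3 times.

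Over the whole list, CCAAT or its reverse was found in the promoters of 23 of 33 genes (69.7%), against 39.7% of all genes in the table. Among the sterol enzymes it was found in 13 of 15 and among the fatty acid genes in 5 of 9. GGGCGG occurred in 31 of 33 (93.9%) against 48.3% of all genes. A sterol regulatory element spelled TCACNCCAC, searched on both strands and sharing the letters CCA with the CCAAT box, matched in 1 promoter, that of SREBF2, against 1.39% of all genes. These matches describe the letters of the windows, which differ in base composition, and nothing was measured at them.

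The wider lipid pathway was read from lists of other genes, whose counts stand beside those over all rows: 14.3% rose and 15.0% fell with miR-608, 14.6% rose and 16.8% fell with miR-552-3p, and 18.9% were higher and 18.2% lower between the mimics. Of 16 measured other sterol genes, 7 rose and 2 fell with miR-608, 3 rose and 3 fell with miR-552-3p, and 4 were higher and 1 lower between the mimics. These are 43.8% and 12.5%, 18.8% and 18.8%, and 25% and 6.25% of the list, so the shares with miR-552-3p lay near those over all rows. Their median log2 values were 0.31, 0.09 and 0.18. With miR-608 the oxysterol-binding protein family gene OSBPL2 rose by 1.34 ± 0.09 (adjusted p = 0.00162) and ERLIN1, an endoplasmic reticulum protein of sterol-regulated degradation, by 0.55 ± 0.08, whereas the lipoprotein receptor SCARB1 fell by 0.94 ± 0.08. With miR-552-3p the sterol reductase LBR rose by 0.75 ± 0.09 (adjusted p = 0.00475), the SREBP protease MBTPS2 rose by 0.53 ± 0.09 and ARV1 fell by 0.48 ± 0.07. LBR catalyses the same reduction as TM7SF2, which fell. Between the mimics OSBPL2 (1.13 ± 0.09), ERLIN1 (0.94 ± 0.08) and the lysosomal sterol carrier STARD3 (0.78 ± 0.10) were higher with miR-608.

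Among 21 measured other fatty acid and glycerolipid genes, 2 rose and 1 fell with miR-608, 1 rose and 6 fell with miR-552-3p, and 8 were higher and 1 lower with miR-608 than with miR-552-3p. The shares were 9.52% and 4.76% with miR-608, and 4.76% and 28.6% with miR-552-3p. In a list of 21, 1 gene is 4.76%, so the counts with miR-608 do not stand apart from the shares over all rows. The list medians were 0.10, -0.05 and 0.15, so that with miR-608 it was above zero where that of the fatty acid genes described above was -0.24. The acyltransferase AGPAT2 rose by 0.90 ± 0.07 with miR-608 and CPT1A, which admits fatty acids to mitochondria for oxidation, by 0.89 ± 0.09, while AGPAT1 fell by 0.72 ± 0.07. With miR-552-3p SLC25A1, the mitochondrial citrate carrier that supplies ACLY, fell by 1.33 ± 0.10 (adjusted p = 0.00135), AGPAT1 by 0.70 ± 0.07 and the desaturase SCD5 by 0.74 ± 0.07. Between the mimics SLC25A1 differed by 1.56 ± 0.10, AGPAT2 by 1.17 ± 0.07 and CPT1A by 0.74 ± 0.09, each higher with miR-608.

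LXR, the oxysterol receptor, drives SREBF1 and cholesterol export genes. Of 7 measured genes of LXR and its targets, 3 rose and 1 fell with miR-608, 1 rose and 4 fell with miR-552-3p, and 5 were higher and 0 lower between the mimics by limma, also at an unadjusted p under 0.05. At that unadjusted threshold 3942 of all 16891 rows were higher and 3970 lower between the mimics. In a list of 7, 1 gene is 14.3%, so the single calls do not stand apart from the shares over all rows. The exporters ABCG1 (0.85 ± 0.09) and ABCA1 (0.52 ± 0.07) rose with miR-608 and the LXR partner RXRA fell by 0.60 ± 0.09. With miR-552-3p RXRA fell by 1.22 ± 0.09 (adjusted p = 0.00126) and the LXR gene NR1H3 by 0.58 ± 0.07, while ABCA1 rose by 0.61 ± 0.07. Between the mimics ABCG1 (1.42 ± 0.09), NR1H3 (0.65 ± 0.07) and RXRA (0.62 ± 0.09) were higher with miR-608.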

How the data were processed

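Signals of 47319 probes on 6 bead arrays were used. The authors deposited linear average probe intensities; per the submitters' processing notes GenomeStudio 2011.1 was used. The sources used here do not give whether background had been subtracted. Beside each signal, per the file headers, stands its detection p-value. The authors deposited log2 values of 17751 probes too, which equal quantile-normalized log2 signals, are not centred and have a median of 9.53 on every array; they served as an alternative.

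The signals were background-corrected from the detection p-values, offset by 16 and quantile normalized on the log2 scale with the neqc steps of limma 3.58.1 (R 4.3.3). Detection (p under 0.05) on 2 or more arrays was required, which left 20749 probes. The brightest of these by mean stood for each gene, giving 16891 rows. One limma fit (lmFit, eBayes; residual degrees of freedom 3, total 5.12) covered the 6 arrays, two-sided; p-values were adjusted by Benjamini-Hochberg across the 16891 rows, with no minimum fold. The offset makes log2 fold changes of dim probes too small. The number of arrays limits the precision. Gene names come from the platform annotation, which can be old. Only the limma fit was tested on simulated data, not the steps before it.

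Every measured member is named; values per array are given for members called with a log2 change of at least 0.5 against control or with probes called in opposite directions, and for the second TMEM97 probe, chosen after its values were seen. Of other pathway genes, the called ones with the 3 smallest p per list and comparison are named. The members and lists were chosen with earlier results of these data known. Alternatives changed the background correction, offset, normalization, detection filter, probe choice, prior variance, arrays in the fit and replicate block, and used the authors' values. No pairing by replicate number was visible in the normalized values: the deviations of same-numbered arrays correlated at -0.023, 0.028 and 0.0004 between groups.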

Additional observations from a re-analysis of the deposited data

How the results depend on the processing

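No gene called in a comparison changed sign under any alternative run. Calls held in every alternative for 10 of 19 genes with miR-608, 11 of 20 with miR-552-3p and 13 of 19 between the mimics. Apart from the omission of arrays, alternatives ended 7, 6 and 3 calls, all of them also lost when 1 array was left out except that of MSMO1 between the mimics. With no detection filter the calls over all rows were 2981, 3377 and 4472 against 4941, 5308 and 6266, more rows being tested, and 9 members rose and 3 fell with miR-608. Leaving out 1 array of the groups compared gave as few as 2382, 2917 and 4128 calls. Members that fell with miR-608 numbered 8 under an intensity trend, with the authors' values and where detection on every array was required. Calls with miR-608 over all rows, in either direction, were also more frequent there. They numbered 6451 of 16891, 6085 of 14381 and 5538 of 12660, against 4941 of 16891 in the main fit. The cause was not tested. With 1 array left out the members that rose and fell were 8 to 13 and 2 to 4 with miR-608, 6 to 9 and 5 to 6 with miR-552-3p, and 10 to 11 and 4 to 6 between the mimics. In those fits the sterol medians were 0.33 to 0.37, -0.000323 to 0.10 and 0.22 to 0.26, and the fatty acid medians -0.26 to -0.23, -0.068 to 0.057 and -0.21 to -0.15. The sterol median with miR-608 was 0.27 with no background correction, 0.32 with an offset of 50, 0.26 with median scaling and 0.27 with the authors' values. Between the mimics it was 0.21 with no background correction, with the authors' values and with the mean of probes, and the fatty acid median was -0.27 with median scaling. With miR-552-3p the sterol median turned to -0.0168 with median scaling. MSMO1 was not called between the mimics with the mean of its probes (0.21, adjusted p = 0.116). The replicate block, on numbers with no visible pairing, gave 4145, 4570 and 5575 calls over all rows. It ended the calls of ACLY with miR-608, of NSDHL, ACACA, FADS1 and LPIN1 with miR-552-3p, and of ACAT2 and ACLY between the mimics. Genes that were not called and changed sign with median scaling were LSS (-0.054) and FADS2 (-0.077) with miR-608, MVD (-0.109), ACLY (0.062), SCD (0.039), FADS2 (-0.089) and AACS (-0.119) with miR-552-3p, and SQLE (-0.044) between the mimics. With the mean of probes they were TMEM97 (0.0094) with miR-608 and ACLY (0.041) with miR-552-3p. With 1 array left out, uncalled values with miR-608 ran from -0.18 to 0.51 for MVK, -0.079 to 0.12 for LSS, -0.092 to 0.078 for HSD17B7, -0.024 to 0.049 for SCAP and -0.12 to 0.20 for FADS2. With miR-552-3p they ran from -0.31 to 0.21 for MVK, -0.061 to 0.087 for MVD, -0.11 to 0.10 for EBP, -0.17 to 0.42 for SREBF2, -0.090 to 0.042 for ACLY, -0.082 to 0.15 for FADS2 and -0.054 to 0.087 for AACS. Between the mimics they ran from -0.13 to 0.56 for MVK, -0.15 to 0.049 for SC5D and -0.15 to 0.17 for FADS2.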
